A study of Mus musculus with 6 samples.

Results

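Chemokines and their receptors were followed in RNA sequencing of mouse skin, as every gene of the deposited count table whose symbol names a CC, CXC, XC or CX3C chemokine, a receptor for one, or an atypical chemokine receptor. The rule took 40 of 14484 genes, made up of 25 ligands and 15 receptors, and 4 of the 15 receptors were of the atypical kind. The 6 libraries came from skin of mice on a C57BL/6-129J background, and all mice carried 1 Braf CA allele (Braf CA/+) and Cre (Cre +). Braf is a growth-signalling kinase. In the control group, ATR WT, both Atr alleles were wild type (ATR +/+). In the other group, ATR mD/mD, the genotype was ATR fl/fl, and part of the kinase domain of ATR, a kinase that answers stalled DNA replication, was deleted. Each group had 3 libraries, ATR WT 1 to 3, the controls, and ATR mD/mD 1 to 3, the mutants. The series design speaks of nevi (moles), whereas the tissue label is skin. The promoter that drives Cre and the age and sex of the mice were not stated in the labels used here. Nor was it stated whether each library of a group came from a separate animal. The p-values therefore measure only the spread between these libraries, part of which may be technical. Counts of Xist, given below, differed widely within both groups, so the libraries of a group did not all come from the same animal. The design text sets ATR mutant against ATR wild-type nevi, and the series title speaks of the immune microenvironment.

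Chemokines are small secreted proteins that steer leukocytes along gradients through G protein-coupled receptors on the cell surface. Inflammatory chemokines are made on demand, often under interferon or NF-kB signalling, and homeostatic chemokines are made steadily by resident cells. Atypical receptors (Ackr genes) bind chemokines without the usual G protein signal, and they remove or present the ligand. In skin, keratinocytes, fibroblasts, endothelial cells and resident macrophages all make chemokines.

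Libraries held between 34723600 and 46847751 gene counts. Atr itself, counted over the whole gene, had 17.6 to 24.5 CPM (a read count scaled to the size of its library) in controls and 20.8 to 24.8 CPM in mutants (log2 fold change 0.03, SE 0.172), and such a count does not check a deletion of part of the gene. The level of 34 hair follicle and hair shaft genes (the hair level, the mean of their log2 CPM) divided the libraries without following genotype. It was 6.83 in ATR WT 2, 7.06 in both ATR WT 3 and ATR mD/mD 3, the 3 libraries of higher hair level. ATR mD/mD 1 had -0.39, ATR WT 1 had 1.72 and ATR mD/mD 2 had 1.92, the 3 libraries of lower hair level. Genotype and hair level were therefore not balanced: 2 of 3 ATR WT libraries but 1 of 3 ATR mD/mD libraries were of the higher kind, and all 34 hair genes had a negative log2 fold change by genotype (median -0.69). Keratinocyte markers were abundant in every library, with sums over 9 basal markers of 10520 to 15410 CPM and over 10 suprabasal markers of 8727 to 18140 CPM. The sum over 13 melanocyte markers was 1129 to 1570 CPM in the libraries of higher hair level and 300.9 to 454 CPM in the others. Xist, transcribed from the inactive X chromosome, had 18050 to 29207 counts in ATR mD/mD 1, ATR WT 2 and ATR WT 3 and 23 to 40 in the rest, so sex was also uneven.

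The region before the start of transcription is shown for the 4 ligands with the largest differences between genotypes, because these genes share a direction in the data below. The sequences are the 250 bases before the annotated start, 5′ to 3′ on the gene's strand, from RefSeq on build GRCm38.p6, which is the same assembly as mm10. Capitals mark 3 short motifs searched on both strands: an interferon-type element (GAAA, any 2 bases, GAAA), a loose NF-kB-type element (GGG, any 5 bases, CC) and the AP-1-type element TGANTCA, where N is any base. Overlapping matches run together in capitals. Cxcl9 lies at chr5:92328080-92328329 (minus strand), Cxcl10 at chr5:92348890-92349139 (minus strand), Cxcl1 at chr5:90890995-90891244 (plus strand) and Xcl1 at chr1:164935523-164935772 (minus strand).
Cxcl9: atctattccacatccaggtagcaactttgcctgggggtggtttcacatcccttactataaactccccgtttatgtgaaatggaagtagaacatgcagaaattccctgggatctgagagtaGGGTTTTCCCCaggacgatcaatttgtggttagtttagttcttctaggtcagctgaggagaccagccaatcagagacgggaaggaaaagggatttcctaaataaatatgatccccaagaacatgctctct
Cxcl10: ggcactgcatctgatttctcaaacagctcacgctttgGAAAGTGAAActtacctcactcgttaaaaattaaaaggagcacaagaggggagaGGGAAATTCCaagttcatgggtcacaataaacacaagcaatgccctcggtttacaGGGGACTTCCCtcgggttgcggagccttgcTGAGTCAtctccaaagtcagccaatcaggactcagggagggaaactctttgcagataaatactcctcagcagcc
Cxcl1: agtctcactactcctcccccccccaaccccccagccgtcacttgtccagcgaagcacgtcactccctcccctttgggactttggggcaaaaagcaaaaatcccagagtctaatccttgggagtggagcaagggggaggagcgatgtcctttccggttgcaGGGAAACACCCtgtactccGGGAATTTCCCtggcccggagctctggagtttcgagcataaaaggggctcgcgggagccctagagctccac
Xcl1: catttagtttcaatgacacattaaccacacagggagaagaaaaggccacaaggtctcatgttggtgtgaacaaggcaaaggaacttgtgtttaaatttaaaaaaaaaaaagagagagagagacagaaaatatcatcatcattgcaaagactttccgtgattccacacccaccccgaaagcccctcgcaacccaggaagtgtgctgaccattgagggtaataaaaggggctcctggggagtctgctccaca
The Cxcl10 window held 1 interferon-type match, NF-kB-type matches in 2 places and 1 AP-1 match. The Cxcl1 window held NF-kB-type matches in 2 places, the Cxcl9 window in 1 place, and the Xcl1 window held none of the 3 motifs. RefSeq gave such a window for 31 of the 40 members. The interferon-type letters were found in 2 of these 31 members (Cxcl10 and Cxcl14) and in 3.5% of 27018 genes. The NF-kB-type letters were found in 15 of 31 members and 48.7% of genes, and the AP-1 letters in 4 of 31 members (Cxcl10, Ccl9, Ccl27a and Ccr4) and 7.8% of genes. A match describes the letters only and is neither a measured site nor a cause.

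The interferon-induced T cell attractants Cxcl9 and Cxcl10, the neutrophil attractant Cxcl1 and the lymphocyte-made chemokine Xcl1 were the members that differed most by genotype, with control means 2.31 to 2.87 times the mutant means. In all 4, every ATR WT library lay above every ATR mD/mD library. With p-values adjusted over all genes, no member had one under 0.05. The test was edgeR's quasi-likelihood test, which called 7 genes lower (0.0483%) and 0 higher over the whole table.

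Cxcl9, whose protein binds Cxcr3 on activated T cells, lies on chromosome 5 from 92321347 to 92328079 (minus strand, mm10). It was at 15.03, 13.7 and 13.4 CPM in the controls (libraries 1, 2 and 3, an order kept throughout), against 8.09, 3.63 and 6.47 CPM in the mutants. All ATR WT libraries were close together, and ATR mD/mD 2 was the lowest of all. Mean CPM was 14.03 ± 0.875 in controls and 6.06 ± 2.26 in mutants (SD, n = 3), and the log2 fold change, mutant against control, was -1.21 (SE 0.305, unadjusted p = 0.00623, adjusted p = 0.9999, edgeR). Its neighbour Cxcl10, which binds the same receptor and lies beside it (minus strand, 92346638 to 92348889), had 9.24, 9.50 and 9.85 CPM against 4.60, 1.85 and 4.69 CPM. Here too the ATR WT libraries were tight and ATR mD/mD 2 was the lowest. The log2 fold change was -1.36 (SE 0.37, unadjusted p = 0.00903, adjusted p = 0.9999, edgeR). Of the exon bases of Cxcl10, 5.9% are shared with Art3 on the opposite strand. The third ligand of Cxcr3, Cxcl11, is not analysed here.

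Cxcl1, the only measured ligand of the neutrophil receptor Cxcr2, lies on chromosome 5 from 90891241 to 90893115 (plus strand). Its counts were 281, 248 and 224 in the controls and 79, 52 and 94 in the mutants, or 7.75, 5.70 and 4.58 against 2.26, 1.32 and 2.69 CPM. The lowest ATR WT library was well above the highest ATR mD/mD library. The log2 fold change of -1.52 (SE 0.357, unadjusted p = 0.00433, adjusted p = 0.9999, edgeR) was the largest in size among the 40 members. DESeq2 called Cxcl1 at an adjusted p of 0.042, and over the other alternatives with all libraries or with 1 left out no test called it or any other member.

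Xcl1, a chemokine made by natural killer cells and CD8 T cells that draws cross-presenting dendritic cells through Xcr1, lies on chromosome 1 from 164931644 to 164935527 (minus strand). It was at 4.49, 4.37 and 2.93 CPM in the controls, against 2.14, 1.04 and 1.66 CPM in the mutants. These rest on 143 to 190 counts against 41 to 75 counts per library. The groups did not overlap, and the log2 fold change was -1.28 (SE 0.353, unadjusted p = 0.00942, adjusted p = 0.9999, edgeR). Of its exon bases, 18.7% are shared with Gm20743, a gene on the opposite strand, and reads of the pair cannot be told apart in these unstranded libraries.

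The monocyte attractants Ccl2 and Ccl7, which share the receptor Ccr2 and lie side by side on chromosome 11 (82035571 to 82047525, plus strand), also had all ATR WT libraries above all ATR mD/mD libraries. Ccl2 was at 19.0, 18.4 and 26.5 CPM against 17.4, 5.94 and 14.4 CPM, a log2 fold change of -0.76 (SE 0.396, unadjusted p = 0.099, edgeR). Ccl7 was at 17.2, 22.1 and 17.4 CPM against 16.0, 5.61 and 12.1 CPM, a log2 fold change of -0.74 (SE 0.374, unadjusted p = 0.0892, edgeR). The gap between the groups was narrow in both, and ATR mD/mD 2 stood far below the rest. Without ATR mD/mD 2, the log2 fold changes were -0.42 for Ccl2 and -0.42 for Ccl7. On CPM without TMM scaling, the groups of Ccl7 overlapped (15.8 CPM in ATR WT 1, 16.2 CPM in ATR mD/mD 1), and those of Ccl2 almost met (17.53 and 17.48 CPM in the same libraries). Ccl12, another ligand of Ccr2, was at 2.73, 3.36 and 3.93 CPM against 3.66, 1.57 and 5.27 CPM, and its groups overlapped (log2 fold change 0.07, SE 0.448).

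**Figure D1:**
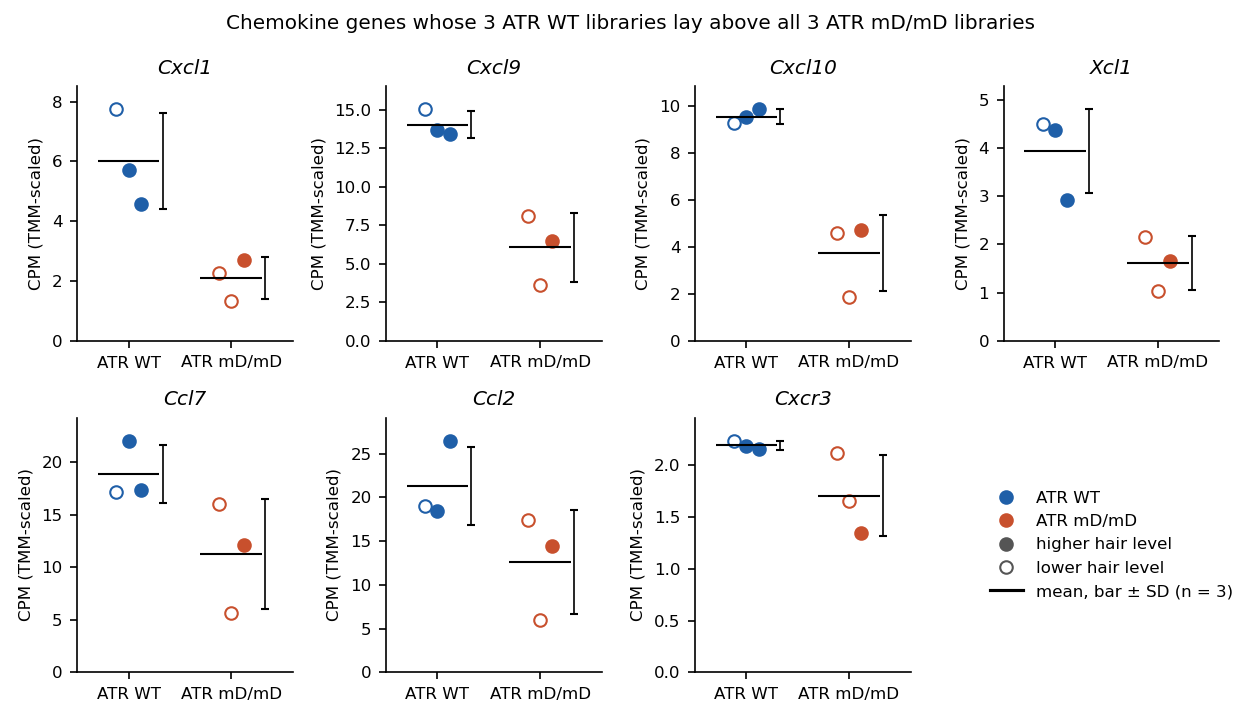
TMM-scaled CPM of the 7 members whose 3 ATR WT libraries lay above all 3 ATR mD/mD libraries, with 1 point per library, filled for higher and open for lower hair level, and lines for the mean ± SD (n = 3). Cxcl9 and Cxcl10 show tight ATR WT libraries near 14.03 and 9.53 CPM, and ATR mD/mD 2 is the lowest point in all but Cxcr3.

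Over the whole family, 4 of 40 members had an unadjusted p under 0.05 in the direction of lower ATR mD/mD, against 1.09% of all genes, and 0 in the other direction, against 0.566% (edgeR). The groups did not overlap in 7 of 40 members with ATR WT higher, against 2.58% of genes, and in 0 with ATR mD/mD higher, against 2.26% of genes (4.84% in either direction). Negative values were more frequent among ligands than among receptors, a difference that was not tested. Of 25 ligands, 18 had a negative log2 fold change, with a median of -0.40, and of 15 receptors, 7 did, with a median of 0.11. The median over all genes was 0.01 and over all 40 members -0.17. The receptor median turned to -0.25 without ATR mD/mD 1, to -0.12 without ATR WT 2 and to -0.03 with the hair level as a covariate, whereas the ligand median stayed below 0 in each of the 14 alternatives. It was nearest to 0 without ATR mD/mD 2 (-0.13) and without control 3 (-0.15).

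**Figure D2:**
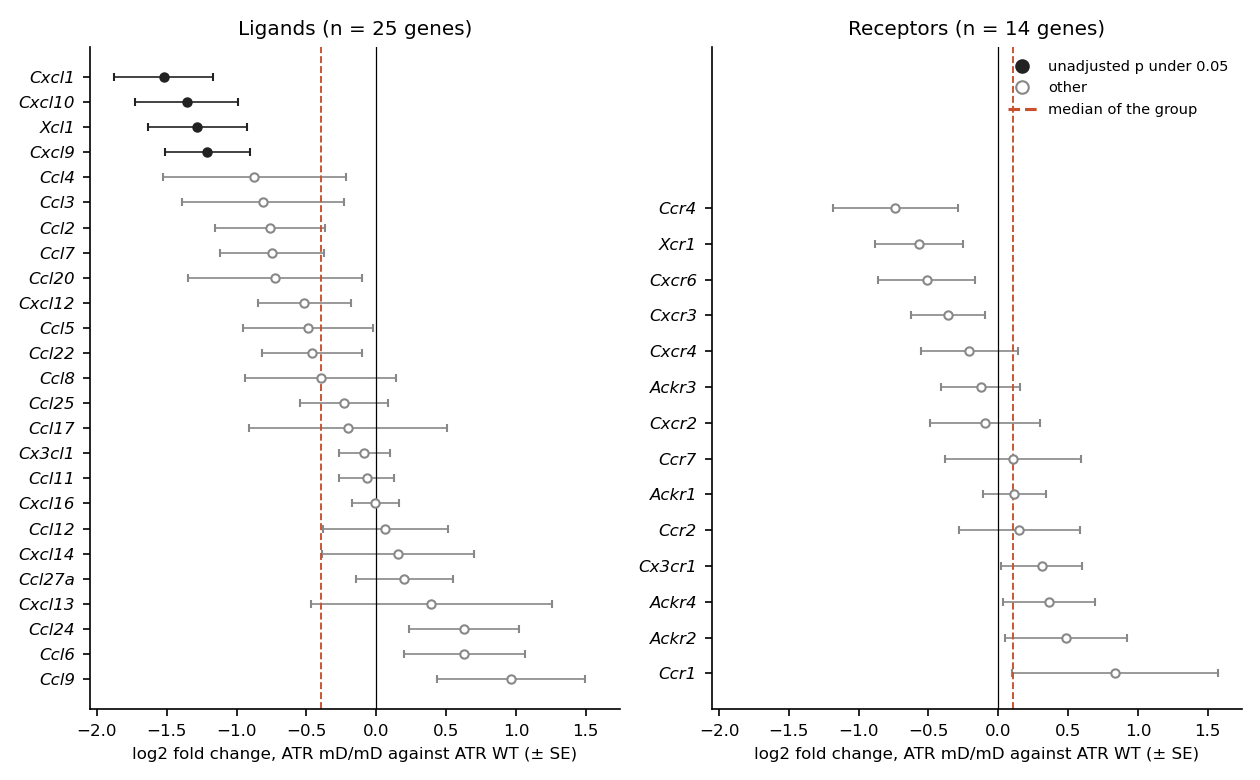
Log2 fold change of ATR mD/mD against ATR WT with its standard error for 25 ligands (left) and 14 of 15 receptors (right), from the edgeR fit of all genes, with the median of all 25 and all 15 as a dashed line. The ligand median lies at -0.40 and the receptor median at 0.11, and the 4 filled points are Cxcl1, Cxcl10, Xcl1 and Cxcl9.

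The 4 leading ligands had the largest fold changes of all members and were the only ones with an unadjusted p under 0.05 (edgeR). Their receptors therefore had fold changes nearer to 0 by selection. Cxcr3, the receptor of Cxcl9 and Cxcl10 on T cells, was at 2.23, 2.18 and 2.15 CPM in the controls, against 2.12, 1.65 and 1.35 CPM in the mutants (47 to 105 counts per library). Its groups did not overlap, but by a narrow gap that was lost without TMM scaling (2.06 CPM in ATR WT 1, 2.13 CPM in ATR mD/mD 1), and the log2 fold change was -0.36 (SE 0.267, unadjusted p = 0.222, edgeR). Cxcr2, which neutrophils carry, was at 1.65, 1.43 and 2.33 CPM against 1.89, 0.965 and 2.23 CPM (-0.09, SE 0.393). Xcr1, a marker of cross-presenting dendritic cells, was at 2.59, 2.60 and 3.66 CPM against 2.63, 1.85 and 1.49 CPM (-0.57, SE 0.315). Both receptors overlapped between the groups. Whether a ligand differed more than its receptor was not tested.

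Marker genes of the cells that carry or make these chemokines were read beside them. In bulk skin, fewer cells of a type and less RNA per cell cannot be told apart. The sum over the 18 matched T and NK cell markers was 101.8 to 145.3 CPM in the controls, against 76.6 to 150.2 CPM in the mutants, and the groups overlapped. By hair level this sum did separate, at 76.6 to 106.9 CPM in the libraries of higher and 117.2 to 150.2 CPM in those of lower hair level. Of these 18 markers, 9 were lower, and the groups of 2 did not overlap, with ATR WT higher (2.58% of all genes). At both hair levels, 13 were lower in ATR mD/mD (19.9% of all genes), although each level leaves 1 library on 1 side. By construction, the 13 hold the 2 without overlap. The helper T cell coreceptor Cd4 alone had an unadjusted p under 0.05 (6.15, 9.08 and 10.6 CPM against 4.29, 3.96 and 4.07 CPM, log2 fold change -1.07, SE 0.253, adjusted p = 0.9999, edgeR). Of all genes, 1.09% were lower at that threshold. Cd8a, Cd8b1, Ncr1, Gzma and Gzmb were among the listed markers without a match. Macrophage and monocyte markers summed to 861.1 to 1504 CPM against 1080 to 1603 CPM, with 9 of 20 lower. Dendritic and Langerhans cell markers summed to 2896 to 3547 CPM against 2097 to 3685 CPM, with 12 of 16 lower. Neutrophil markers rested on 4 genes and summed to 11.2 to 37.7 CPM against 14.1 to 21.6 CPM. Among them, S100a8 and S100a9 were also listed as stress keratinocyte markers. B and plasma cell markers (4 of 9 matched) summed to 528.1 to 942.7 CPM against 463.5 to 889 CPM, and mast cell markers to 234.2 to 341.1 CPM against 228.1 to 322 CPM. Nearly all of the B and plasma cell sum was Sdc1, at 514, 570 and 870 CPM against 452, 513 and 867 CPM. Sdc1 was higher in the libraries of higher hair level, without overlap, so this sum is no measure of B and plasma cells. The macrophage, dendritic and neutrophil lists hold Ccr2, Cx3cr1, Xcr1, Ccr7 and Cxcr2, which are also members here. The part of these cells in the chemokine differences was not tested.

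A second set of ligands ran the other way or was set by single libraries. Ccl9 and Ccl6, myeloid chemokines that bind Ccr1 and lie side by side on chromosome 11 (83572919 to 83593087, minus strand), had the highest positive values among the ligands. Ccl9 was at 20.3, 30.1 and 36.5 CPM in the controls, against 106.6, 34.7 and 28.3 CPM in the mutants (log2 fold change 0.96, SE 0.533). Ccl6 was at 32.9, 63.3 and 69.2 CPM against 139.2, 57.7 and 59.3 CPM (0.63, SE 0.434). In both, ATR WT 1 was the lowest and ATR mD/mD 1 by far the highest library, and without ATR mD/mD 1 the values were 0.13 and 0.09.

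Their receptor Ccr1 followed the same order of extremes, at 0.662, 2.94 and 4.07 CPM against 8.26, 2.36 and 3.12 CPM (0.83, SE 0.738). Ccr2, the receptor of inflammatory monocytes, was at 18.0, 25.6 and 39.1 CPM against 48.6, 25.2 and 17.9 CPM (0.15, SE 0.434). Without ATR mD/mD 1, the values were 0.10 for Ccr1 and -0.35 for Ccr2. ATR WT 1 and ATR mD/mD 1 were also the libraries with the lowest and the highest macrophage marker sum, 861.1 and 1603 CPM, and the part of those cells in these values was not tested.

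Ccl3, Ccl4 and Ccl5, which attract T cells and monocytes, all had negative values, -0.81 for Ccl3 (SE 0.579), -0.87 for Ccl4 (SE 0.654) and -0.49 for Ccl5 (SE 0.467), and the groups overlapped in each. With 1 library left out, Ccl3 was at -0.26 (without ATR WT 2), Ccl4 at -0.40 (without ATR mD/mD 2) or -1.54 (without ATR mD/mD 1), and Ccl5 at -0.13 (without ATR mD/mD 2). Ccl4 was among the least abundant members, with 8 counts in ATR mD/mD 2 and at most 90 in any library. ATR mD/mD 2 was the lowest library in all 3 genes, and it was the lowest of the 6 in 14 of the 25 ligands but in 2 of the 15 receptors. ATR mD/mD 3 was the lowest in 8 of the 15 receptors and 2 of the 25 ligands.

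The Ccr4 axis, which draws T cells into skin, had negative values for ligands and receptor. Ccr4 was at 8.19, 4.81 and 6.24 CPM in the controls, against 3.09, 6.35 and 2.09 CPM in the mutants (-0.74, SE 0.45). Its ligands Ccl22 and Ccl17 had -0.46 (SE 0.358) and -0.20 (SE 0.707), and the groups overlapped in all 3. Ccl17 turned to 0.54 without ATR WT 3, its highest library. Cxcl16 and Cx3cl1, the ligands that are made as membrane proteins, stayed near level, at 45.6 to 62.2 CPM and 15.2 to 23.6 CPM over the 6 libraries. The log2 fold change of Cxcl16 was -0.01 (SE 0.168) and that of Cx3cl1 -0.09 (SE 0.184). Their receptors Cxcr6 and Cx3cr1 had -0.51 (SE 0.346) and 0.31 (SE 0.293). Of the exon bases of Cxcl16, 18.3% are shared with Zmynd15 on the opposite strand.

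The remaining members also overlapped between the groups. Ccl20, the ligand for Ccr6, had a log2 fold change of -0.73 (SE 0.623), which was -0.14 without ATR WT 3 and -1.49 when mutant 3 was left out, and Ccl25, a ligand known from gut and thymus, had -0.23 (SE 0.314). Cxcl13, which draws B cells, ran from 0.486 CPM in ATR mD/mD 1 to 7.59 CPM in ATR mD/mD 2, a 15.6-fold span within 1 genotype (0.39, SE 0.863). Ccl27a, a skin chemokine of keratinocytes, was at 51.9 to 122 CPM in the controls, against 68.5 to 114.3 CPM in the mutants (0.20, SE 0.346), and counts of such gene copies are uncertain because near-identical relatives can share reads. Ccr7, which guides dendritic cells and T cells to lymph nodes, had 0.11 (SE 0.488).

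The 3 libraries of higher hair level lay above the other 3 in 3 ligands (Cxcl14, Ccl8 and Cxcl12), against 19.6% of all genes. They lay below in 6 members (Ccl24, Cx3cr1 and all 4 atypical receptors), against 17.1% of genes. No test is given, because hair level falls into separate clusters. Ccl20 and Ccl3 had means of similar distance between the hair levels, 2.39-fold and 2.23-fold higher in the libraries of higher hair level, but the libraries overlapped. The 9 of 40 members are a smaller share than the 36.7% of all genes that separated in this way.

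Cxcl14, a chemokine made steadily by epithelial cells (minus strand of chromosome 13, 56288643 to 56296551), measured 273.3 (control 2), 350.4 (control 3) and 567.3 CPM (mutant 3) in the libraries of higher hair level. The libraries of lower hair level had 181 (control 1), 169.8 (mutant 1) and 158.9 CPM (mutant 2), so the mean was 2.34-fold higher in the libraries of higher hair level. Between the genotypes it had a log2 fold change of 0.16 (SE 0.543, unadjusted p = 0.784, edgeR). Its sign turned to -0.71 without ATR mD/mD 3, the highest library. Ccl8, a macrophage chemokine (chromosome 11, 82115185 to 82116799, plus strand), was at 149.9, 186.8 and 222.1 CPM in the libraries of higher hair level. In those of lower hair level, in the same order as before, it was at 127.3, 82.6 and 47.4 CPM, and the ratio of the means was 2.17. By genotype Ccl8 had -0.40 (SE 0.54, unadjusted p = 0.486, edgeR), which moved to -1.25 without ATR mD/mD 3 and to -0.02 when mutant 2 was left out.

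Cxcl12, the stromal chemokine that retains leukocytes and stem cells through Cxcr4 (chromosome 6, 117168535 to 117181367, plus strand), was at 434.6, 626.5 and 417.1 CPM in the libraries of higher hair level and at 288.2, 253.8 and 273.2 CPM in the others. By genotype its log2 fold change was -0.52 (SE 0.333, unadjusted p = 0.169, edgeR), and it was -0.20 with the hair level as a covariate and -0.21 without ATR WT 3, the highest library. Cxcr4 did not separate by hair level, at 9.87, 17.6 and 19.8 CPM in the controls and 19.2, 10.004 and 11.8 CPM in the mutants (genotype log2 fold change -0.21, SE 0.349, unadjusted p = 0.574, edgeR). All 14 fibroblast markers, Cxcl12 among them, had a negative log2 fold change (median -0.32, 0 at an unadjusted p under 0.05), with sums of 19160, 17930 and 16040 CPM in controls and 8619, 17790 and 17720 CPM in mutants. Only ATR mD/mD 1 stood below all 3 controls, and the part of fibroblasts in the Cxcl12 value was not tested.

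The atypical receptors lay in the opposite direction from Cxcl12. Ackr3, which takes up Cxcl12, was at 61.6, 58.9 and 46.1 CPM in the libraries of higher hair level and at 92.3, 61.6 and 87.2 CPM in the others, with the highest of the first 3 and the lowest of the others equal when rounded. Ackr4, which takes up Ccl19, Ccl21 and Ccl25, was at 50.4, 42.8 and 49.9 CPM against 83.5, 85.4 and 92.1 CPM. Ackr2, which clears inflammatory CC chemokines, was at 6.42, 6.59 and 4.67 CPM against 9.76, 12.7 and 14.5 CPM, a 2.09-fold difference of the means. Ackr1, found on the endothelium of small veins, was at 23.0, 16.3 and 19.7 CPM against 27.0, 24.6 and 27.5 CPM. Ackr4 and Ackr2 were the clearest, with every library of lower hair level well above every library of higher hair level.

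By genotype none of the atypical receptors stood out. Their log2 fold changes were 0.12 for Ackr1 (SE 0.228, unadjusted p = 0.629, edgeR), -0.13 for Ackr3 (SE 0.282, unadjusted p = 0.668), 0.36 for Ackr4 (SE 0.327, unadjusted p = 0.306) and 0.48 for Ackr2 (SE 0.435, unadjusted p = 0.305). Ackr2 was at -0.02 and Ackr4 at 0.06 with the hair level as a covariate. Of the exon bases of Ackr1, 25.7% are shared with Cadm3 on the same strand, and of those of Ackr4, 8.9% with Acad11 on the opposite strand. Endothelial markers, among them Ackr1 itself, summed to 308.7 to 347 CPM in the libraries of higher hair level and 364.5 to 429.4 CPM in the others. Skeletal muscle markers summed to 8485 to 14340 CPM against 24630 to 38580 CPM. The part of tissue composition in these values was not tested.

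Ccl24, which draws eosinophils through Ccr3, was at 4.51, 3.38 and 4.41 CPM in the libraries of higher hair level and at 6.84, 9.67 and 8.66 CPM in the others, a 2.05-fold difference. Its genotype value of 0.63 (SE 0.393, unadjusted p = 0.158, edgeR) was 0.24 with the hair level as a covariate. Ccl11, the other measured eosinophil attractant, did not separate, at 41.1, 56.5 and 54.9 CPM in controls and 55.2, 52.3 and 37.9 CPM in mutants, with means of 49.7 and 49.5 CPM at higher and lower hair level. By genotype Ccl11 had -0.07 (SE 0.197, unadjusted p = 0.739, edgeR).

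**Figure D3:**
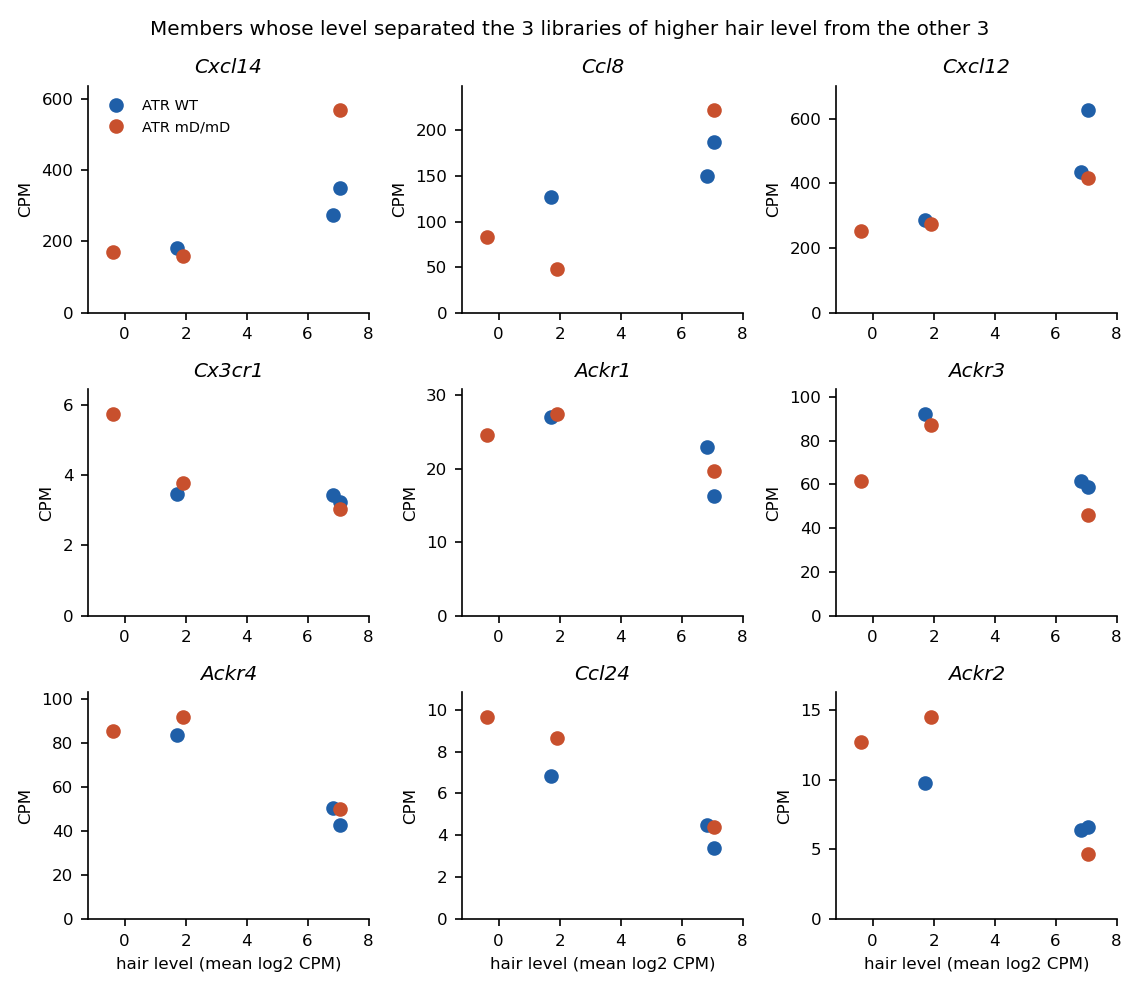
CPM of the 9 members that separated the libraries by hair level, against the hair level of each library (mean log2 CPM of 34 hair genes), with 1 point per library coloured by genotype. Cxcl14, Ccl8 and Cxcl12 are higher in the 3 libraries on the right, and the 4 atypical receptors, Ccl24 and Cx3cr1 are lower there, Cx3cr1 and Ackr3 by a narrow gap.

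Values within each hair level describe how large the genotype difference of the leading ligands was there; its sign is fixed, because every control library lay above every mutant library in these genes. Among the libraries of higher hair level (2 ATR WT and 1 ATR mD/mD), the log2 ratio of mean CPM was -1.06 for Cxcl9, -1.04 for Cxcl10, -0.93 for Cxcl1 and -1.14 for Xcl1. Among the libraries of lower hair level (1 ATR WT and 2 ATR mD/mD), it was -1.36, -1.52, -2.11 and -1.50 in the same order. Ccl2 and Ccl7 were at -0.64 and -0.70 at higher and at -0.71 and -0.67 at lower hair level. These subsets leave 1 library on 1 side and have no test. At higher hair level, Xist had 23005 and 29207 counts in ATR WT 2 and 3 but 23 in ATR mD/mD 3. Genotype and sex cannot be told apart there. With the hair level as a covariate, the log2 fold changes of Cxcl9, Cxcl10, Cxcl1 and Xcl1 were -1.26, -1.30, -1.54 and -1.37 (adjusted p 0.965, 0.981, 0.855 and 0.981, edgeR).

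Of all 40 members, 15 were lower in ATR mD/mD at both hair levels, a count that holds by construction the 7 members whose groups did not overlap, 2 (Ccl24 and Ackr4) were higher at both, and 23 differed in sign. Of all genes, 19.9% were lower at both. The myeloid genes were among those that differed in sign. Ccr1 was at -0.17 at higher and 3.00 at lower hair level, Ccl9 at -0.23 and 1.80, and Ccl6 at -0.16 and 1.58, and the values at lower hair level set ATR mD/mD 1 and 2 against ATR WT 1 alone.

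**Figure D4:**
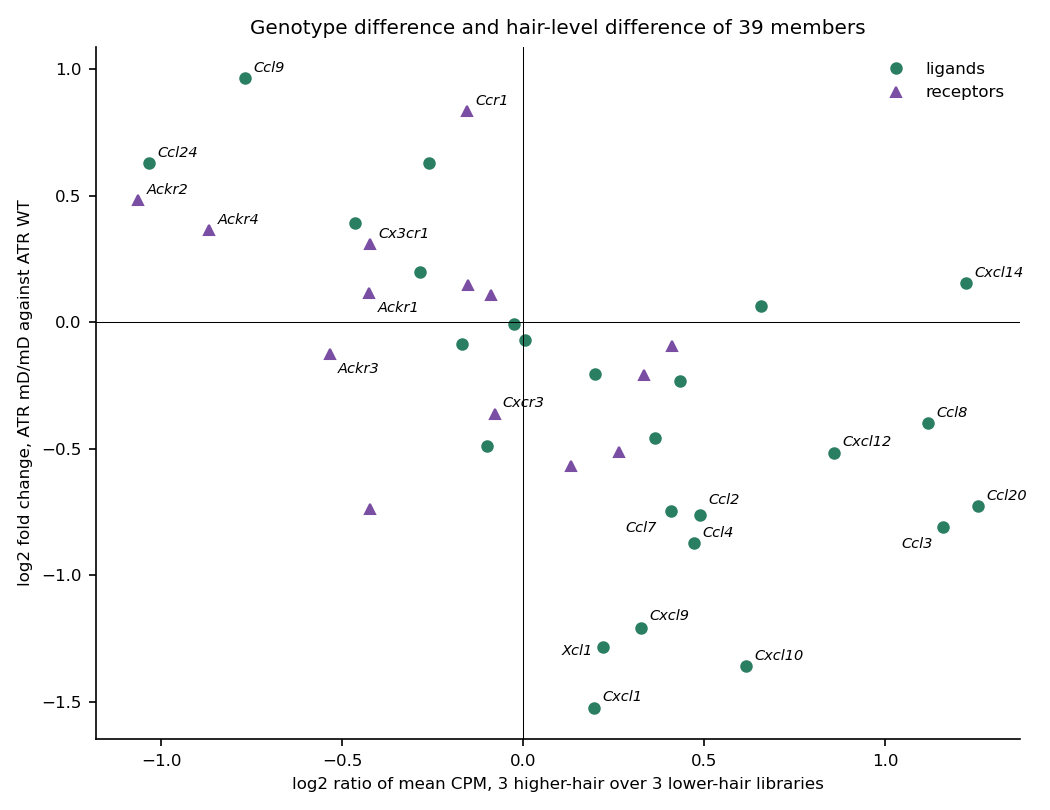
Log2 fold change by genotype (vertical) against the log2 ratio of mean CPM between the 3 libraries of higher and the 3 of lower hair level (horizontal), for 25 ligands (circles) and 14 of 15 receptors (triangles). Cxcl1, Cxcl10, Xcl1 and Cxcl9 lie lowest, Ccl20, Cxcl14, Ccl3 and Ccl8 lie farthest to the right and Ackr2, Ackr4 and Ccl24 far to the left; both axes use the same 6 libraries.

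Levels of different genes were compared as RPKM, the CPM divided by the length of the gene's exons in kilobases, with exons from the GENCODE M21 annotation. Ligands were more abundant than receptors, with a median of the gene means of 5.08 RPKM over 25 ligands and 1.66 RPKM over 15 receptors. The mean was 10 RPKM or more in 10 ligands and 3 receptors. Ccl8 led the ligands at 266.2 ± 127 RPKM (SD over 6 libraries), followed by Cxcl14 at 155 ± 86.2, Cxcl12 at 46.8 ± 17.4 and Ccl11 at 45.9 ± 7.44 RPKM. Libraries of the first and the second overlapped, as did those of the third and the fourth, whereas every library of Cxcl14 lay above every library of Cxcl12. Ccl8 has only 511 exon bases, so its level per length is far above its level in CPM. With the length of the longest transcript instead, 3 of these 4 ligands kept their place among the 4 highest.

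Summed over the 25 ligands, the level was 999.3, 1250 and 1571 CPM in controls and 1075, 806.7 and 1595 CPM in mutants. The sum over the 15 receptors was 270.9, 217.9 and 229.1 CPM against 304.5, 284.8 and 175.1 CPM. Both sums overlapped between the genotypes.

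Atypical receptors held the first 3 places among the receptors. Ackr3 was at 20.3 ± 5.36 RPKM, Ackr1 at 16.4 ± 3.11 and Ackr4 at 12.5 ± 4.07, and Cxcr4 led the signalling receptors at 8.13 ± 2.57 RPKM (SD over 6 libraries). Neighbours in this order overlapped, and with the length of the longest transcript the order was Ackr4 (25.0 RPKM), Ackr3 (22.2 RPKM) and Ackr1 (19.9 RPKM). The 4 ligands that differed most by genotype were among the less abundant ones: Xcl1 was at 5.30, Cxcl9 at 3.33, Cxcl10 at 2.94 and Cxcl1 at 2.16 RPKM on average.

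In all 18 pairs examined of a ligand with a receptor it is known to bind, the mean RPKM of the ligand was above that of the receptor. Their ratio ran from 1.48 for Ccl12 and Ccr2 to 31.1 for Ccl6 and Ccr1. Ccl12 was above Ccr2, and Ccl17 above Ccr4, in only 4 of the 6 libraries. The result depends on the pairs chosen, among which Ackr3 was the only atypical receptor. Outside them, Ccl25 at 0.293 RPKM was below Ackr4 at 12.5 RPKM, and Ccl3 at 2.57 RPKM was below Ackr2 at 2.91 RPKM. Cxcl12 was 5.75 times as abundant per length as Cxcr4 and 2.30 times as abundant as Ackr3. Xcl1 was 9.55 times as abundant as Xcr1, whose mean of 0.555 RPKM was the lowest of the receptors. These ratios compare RNA in whole skin and not protein or the cells that meet.

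**Figure D5:**
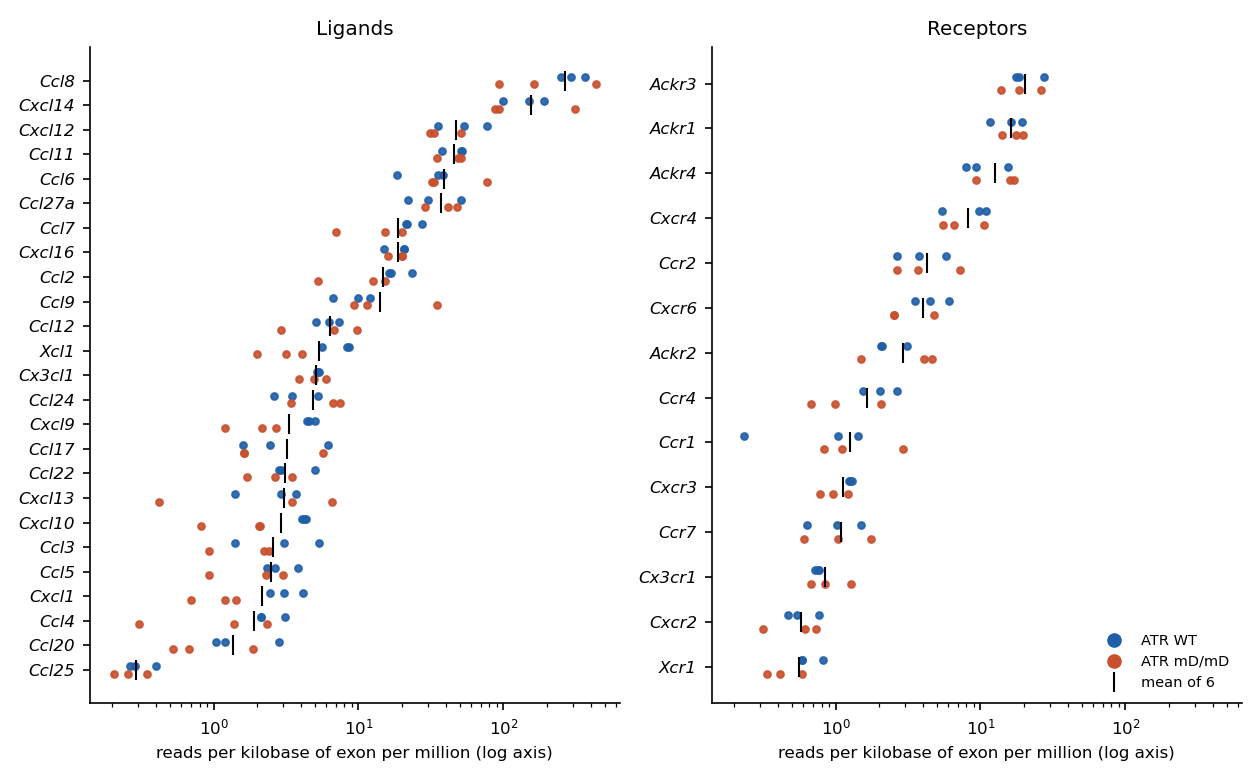
Level per exon length (RPKM, log axis) of 25 ligands (left) and 14 of 15 receptors (right), with 1 point per library coloured by genotype and a bar at the mean of 6. Ccl8 and Cxcl14 lead the ligands at 266.2 and 155 RPKM, and Ackr3, Ackr1 and Ackr4 lead the receptors.

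The family is clustered in the genome, and neighbours did not always share a direction. Chromosome 11 holds 11 of the 25 ligands, and within its CC cluster Ccl2 and Ccl7 had negative values while Ccl12, Ccl6 and Ccl9 had positive ones. On chromosome 5, Cxcl1, Cxcl9 and Cxcl10 had the same direction. Chromosome 9, which also carries Atr (95857597 to 95951781), holds 9 of the 15 receptors. Of those described here, the nearest to Atr is Ackr4, at 8.13 Mb, and log2 fold changes ran from -0.74 for Ccr4 to 0.83 for Ccr1, none past the test.

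Genes of the wider pathway were read from lists. Of 45 genes of signalling below chemokine receptors, 27 were lower and 18 higher, with a median log2 fold change of -0.03. The 1 gene at an unadjusted p under 0.05 (1.09% of all genes were lower at that threshold) was Rgs16, which shortens G protein signals of such receptors (6.51, 9.06 and 7.10 CPM against 5.58, 4.39 and 4.35 CPM, log2 fold change -0.66, SE 0.228, adjusted p = 0.9999, edgeR). Rgs1, a regulator of the same kind in lymphocytes, was at 12.5, 14.9 and 14.0 CPM against 13.0, 3.28 and 3.89 CPM (-1.04, SE 0.535).

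Of 32 regulators of chemokine transcription and RNA stability in the interferon and NF-kB arms, 24 were lower and 8 higher, with a median of -0.15. At an unadjusted p under 0.05, 2 were lower (1.09% of all genes) and 0 higher (0.566%). The groups did not overlap in 4, all with ATR WT higher (2.58% of all genes). At both hair levels 17 were lower (19.9%), a count that holds these 4 by construction. The sum over the 32 genes was 2071 to 2544 CPM in controls and 1677 to 1974 CPM in mutants, without overlap. This sum includes Zfp36, given next, and without Zfp36 the groups overlapped. ATR WT 2 then lay below ATR mD/mD 1 and ATR mD/mD 2. Zfp36, which speeds the decay of cytokine mRNAs, was at 480, 391.4 and 183.6 CPM against 132, 166.1 and 110.4 CPM (-1.37, SE 0.367, adjusted p = 0.9999, edgeR). Zc3h12a, an RNase that cuts inflammatory mRNAs, was at 35.5, 30.4 and 44.8 CPM against 27.8, 25.9 and 26.0 CPM (-0.47, SE 0.17). Il1b had -0.89 (SE 0.421) and overlapped between the groups. Of 19 chemokine-cleaving and chemokine-like genes, 14 were lower, with a median of -0.07 and 0 at an unadjusted p under 0.05. The part of these regulators in the chemokine values was not tested.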

How the data were processed

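Messenger RNA of 6 skin samples was sequenced from TruSeq RNA v2 libraries, a kit that does not mark strand. The authors' deposited table gives, per the file headers, unnormalised counts for each gene in each library, beside log2 values (a fold change and an average level) and p-values of their own comparison. In the authors' deposited table, 0 of the 40 members had an adjusted p under 0.05, the smallest being 0.922. The submitters' processing notes name TopHat2 2.0.12, edgeR, FastQC and mm10. Counter, annotation and low-count filter were "not given in the sources used here". Rows that name no gene (2), with 4.93% to 5.72% of counts, were left out.

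All 14484 genes were fitted with edgeR 4.0.16 (R 4.3.3): TMM scaling (factors 0.923 to 1.04), quasi-likelihood test, no covariate, Benjamini-Hochberg adjustment. Standard errors came from the fit's F statistic (size of the log2 fold change over root F). CPM are TMM-scaled. The fit was tested on simulated data. Member counts ran from 8 to 30611 per library. Replicate numbers were not used to pair the samples in this fit. Genes given in full were the 4 leading ligands, members with an unadjusted p under 0.05 or with groups that did not overlap, the 4 ligands and 4 receptors highest per length, and members that separated by hair level with a 2-fold difference. Values of 1 receptor are not reported here, though it stays in the fit and the counts. Further members, Rgs1 and Il1b are named beside them. The members and lists were chosen with earlier results of these data known. Alternatives were RLE scaling, 2 other filters, DESeq2 1.42.0, limma-voom (limma 3.58.1), edgeR's exact test, a replicate block, a hair level covariate, another gene length and leaving out each library.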

Additional observations from a re-analysis of the deposited data

How the results depend on the processing

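Of the 40 members, 25 kept their direction in all 14 alternatives, among them Cxcl1, Cxcl9, Cxcl10, Xcl1, Ccl2 and Ccl7. In these named genes every control library lay above every mutant library, so leaving out 1 library could not turn the sign. The log2 fold change ran from -1.75 to -1.28 for Cxcl1, -1.47 to -0.95 for Cxcl9, -1.56 to -1.03 for Cxcl10 and -1.54 to -1.04 for Xcl1. The median over the members ran from -0.30 (without ATR mD/mD 1) to -0.07 (without ATR mD/mD 2). Neither filter removed a gene, so both repeated the main fit. The number of genes past the test, 7 lower and 0 higher, became 33 and 6 with DESeq2, 23 and 2 with edgeR's exact test and 9 and 1 with the hair covariate, and 4 to 9 lower and 0 to 1 higher with 1 library left out (4 without ATR WT 2, ATR WT 3 or ATR mD/mD 1). DESeq2 called 1 member, Cxcl1, and no other alternative called any, while 4 to 7 had an unadjusted p under 0.05 in the lower direction (0.759% to 4.42% of all genes) and 0 in the higher, except 3 without ATR mD/mD 3 (2.6%). Members whose groups did not overlap numbered 7 to 13 with 1 library left out, 13 without ATR mD/mD 1 (5.07% of all genes) and 12 without ATR mD/mD 3 (11.7%), where 4 had mutants higher (10.4%), and 5 on CPM without TMM scaling (1.85%).

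For the other 15 members, the sign turned under some alternative, and 14 of them are given here. With limma-voom it turned for Cxcl13 (-0.155), Cxcl14 (-0.036), Cxcl16 (0.001) and Ccl12 (-0.116). With the replicate number as a block it turned for Cxcl13 (-0.028), Cxcl14 (-0.06), Cxcl16 (0.001) and Ccl12 (-0.064). With the hair covariate it turned for Ccr2 (-0.093), Ccr7 (-0.012), Cxcr2 (0.017), Ackr1 (-0.034) and Ackr2 (-0.02). With 1 library left out, values ran from -0.455 to 0.921 for Cxcl13, -0.707 to 0.458 for Cxcl14, -0.14 to 0.09 for Cxcl16, -0.25 to 0.061 for Cx3cl1, -0.355 to 0.417 for Ccl12, -0.186 to 0.081 for Ccl11, -1.074 to 0.539 for Ccl17, -0.059 to 0.618 for Ccl27a, -0.349 to 0.476 for Ccr2, -0.351 to 0.432 for Ccr7, -0.344 to 0.189 for Cxcr2, -0.076 to 0.30 for Ackr1 and -0.398 to 0.124 for Ackr3. The cause was not tested.

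The correlation of same-numbered libraries' deviations from their group means was 0.633, -0.509 and 0.573. Between ATR mD/mD 3 and differently numbered controls it was 0.701 (ATR WT 2) and -0.718 (ATR WT 1). In every combination it was positive within a hair level and negative between the levels, so it cannot show whether replicate numbers pair the libraries. With the replicate block, 6 genes were lower and 0 higher, 0 members passed, and the median over the members was -0.18. Ccl4 had the fewest counts in a library, 8.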
